A study of Mus musculus with 8 samples.

Results

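The peaks described here were called by HA ChIP-seq with the antibody ab9110 in DMSO-treated mouse embryonic stem cells (mESCs) and were met by no peak of either other ChIP-seq list analysed here. They were chosen by the calls themselves: a peak of the ab9110 DMSO list was taken when it shared no base with a peak of the ab9110 dTAG list or of the list made with the HA antibody C29F4 in DMSO, on chromosomes 1 to 19, X and Y. Of the 40813 ab9110 DMSO peaks on these chromosomes, 28028 met this rule (68.7%), out of 70200 peaks in the 4 lists of the series. They are called DMSO-only peaks below. Of the other ab9110 DMSO peaks, 5066 overlapped a C29F4 peak and no dTAG peak, 5382 a dTAG peak and no C29F4 peak, and 2337 overlapped both. Since the calls selected the members, the absence of a peak in dTAG or with C29F4 is their definition and not a result.

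All 8 samples came from EHMT2-dTAG mESCs of a BL6/129 hybrid background, in which the endogenous Ehmt2 gene carries the FKBP12 F36V degron, HA tags and an mCherry reporter, so the DMSO control cells carry the tagged allele too. The cells were grown on mitotically inactivated fibroblast feeders and treated for 24 h with DMSO or with dTAG-13, which directs the tagged protein to degradation. With ab9110 there was 1 ChIP and 1 input sample for DMSO and 1 of each for dTAG. With C29F4 there were 2 ChIP and 2 input samples, all in DMSO and merged into 1 peak list, and they were sequenced on another instrument than the ab9110 samples, so antibody, sequencer and sample cannot be told apart. A ChIP in untagged cells was not analysed here. Each condition was thus 1 list, no difference has a replicate check, and no p-value is given. Intervals are exact (Clopper-Pearson) 95% intervals of a share of peaks. They cover counting error only, since neighbouring peaks and copies of a repeat are not independent.

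EHMT2 (also G9a) forms a heterodimer with EHMT1 and writes mono- and dimethylation on lysine 9 of histone H3, a mark of silenced chromatin. It has no sequence-specific DNA-binding domain and is brought to chromatin by partners such as the zinc finger proteins WIZ and ZFP462. In mESCs it is known to hold down germline genes and genes of the early embryo, many of them near transposable elements.

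Sequence was read around the summit of each peak, the base with the highest pileup of fragments. The following stretches, each 101 bases of the plus strand of GRCm38 (the assembly of mm10, RefSeq copy), show the kinds of sequence that the results below turn on. Those with capitals are placed around the letters and not around the summit. Counted from the summit, the letters were centred at base 72 near Gm15102, 34 near Glyatl3, -81 near Gm17806, 31 in Esrrb and -65 near Gm13313. The stretches near Gm15102, Gm17806 and Gm13313 thus do not hold the summit. The member with the highest fold enrichment lay in a long tract of C and T, and a member on the X chromosome lay in a sequence with many copies in the genome and held the letters AAGATGGCG bound by YY1 (capitals).
Slc9a9 intron, chr9:94728372-94728472: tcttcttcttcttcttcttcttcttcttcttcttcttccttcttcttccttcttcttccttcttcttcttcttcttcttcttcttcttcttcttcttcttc
near Gm15102, chrX:150012984-150013084: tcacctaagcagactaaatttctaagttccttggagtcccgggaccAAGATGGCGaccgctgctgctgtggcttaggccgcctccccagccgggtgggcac

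The next members held the letters TCAAGGTCA, recognised by the orphan nuclear receptor ESRRB, or GGGTGTGG, recognised by KLF factors, on either strand (capitals). The Glyatl3, Gm17806 and Gm13313 members were among those with the highest fold of the members with these letters whose central sequence occurs once in the genome, and the Esrrb member lay within the Esrrb gene itself. The Esrrb member was a weak call (fold 2.73) and lay 173 bp from a dTAG peak.
near Glyatl3, chr17:40899988-40900088: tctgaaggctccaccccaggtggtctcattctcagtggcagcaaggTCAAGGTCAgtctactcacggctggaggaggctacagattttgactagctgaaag
near Gm17806, chr3:9642030-9642130: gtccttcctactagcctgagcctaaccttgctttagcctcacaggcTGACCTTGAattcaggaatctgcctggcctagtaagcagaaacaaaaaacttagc
Esrrb intron, chr12:86503505-86503605: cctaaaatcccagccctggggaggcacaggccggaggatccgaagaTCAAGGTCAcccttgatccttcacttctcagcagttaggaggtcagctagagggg
near Gm13313, chr2:15144902-15145002: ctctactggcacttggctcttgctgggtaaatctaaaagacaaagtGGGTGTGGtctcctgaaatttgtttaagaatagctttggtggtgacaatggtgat

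The member with the highest fold at a protein-coding transcription start lay in an intron of Bmpr1b, which encodes a bone morphogenetic protein receptor, and is shown for comparison.
Bmpr1b start, chr3:141931625-141931725: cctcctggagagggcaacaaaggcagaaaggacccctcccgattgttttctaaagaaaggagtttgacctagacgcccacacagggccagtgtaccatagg

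The DMSO-only peaks were mostly weak calls. The number of fragments covering the summit (pileup) and the local background were recovered from the fold enrichment and p-value that the authors' peak caller gave. The pileup ran from 9 to 77 fragments with a median of 12, and the median background was 2.93 fragments. The fold enrichment, the ratio of pileup to background after the peak caller adds 1 to each, ran from 1.79 to 25.1 with a median of 3.22 (quartiles 3.04 and 3.54). The peaks were narrow, with a median width of 342 bp, against 752 bp for DMSO peaks also called with C29F4, 594.5 bp for those also called in dTAG and 1285 bp for those called in both. Median pileups in the same order were 19, 21 and 37 fragments. The median −log10 q was 1.96, and 46.6% of members had a q-value under 0.01 and 20.8% one under 0.001. These values took part in the choice of members and are given as a description.

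**Figure D1:**
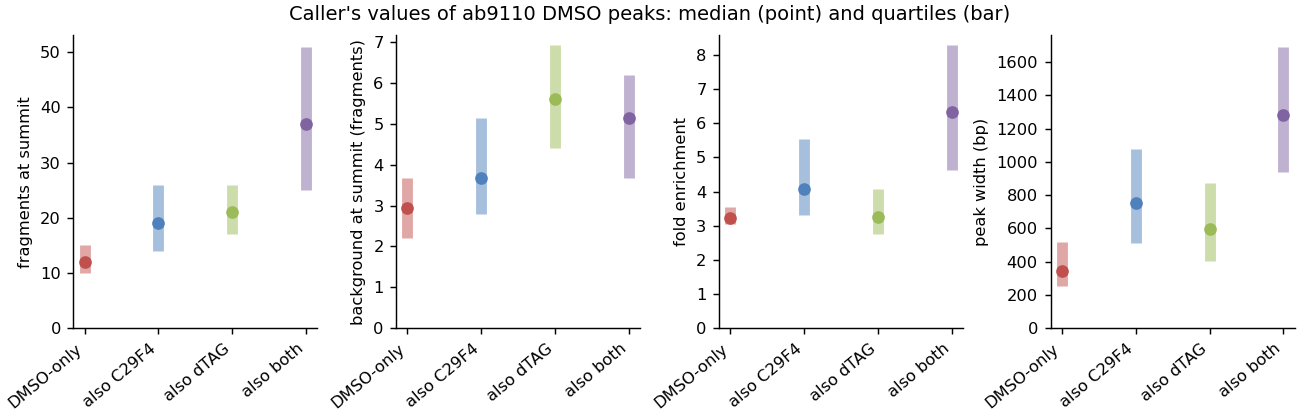
Values of the authors' peak caller for the 4 classes of ab9110 DMSO peaks: fragments at the summit, background at the summit, fold enrichment and peak width in bp. Points are medians and bars run from the lower to the upper quartile; the DMSO-only peaks have the lowest median pileup (12 fragments) and width (342 bp).

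The dTAG library was shallower than the DMSO library. The lowest background of a list, which the peak caller sets to the mean coverage, was 2.11 fragments for ab9110 DMSO and 1.23 for ab9110 dTAG, a ratio of 58.2%. When the fragments at each summit were thinned to that ratio, and a call needed the smallest −log10 p seen among dTAG peaks (4.28), a mean of 28.5% of the DMSO-only peaks, or 7983 of 28028, were expected to be called. The same expectation was 64.6% for DMSO peaks also called with C29F4, 53.2% for those also called in dTAG and 89.9% for those called in both. Only 463 DMSO-only peaks (1.65%, interval 1.51 to 1.81) had a chance of at least 95% of being called at the dTAG coverage. For the others a missing call in dTAG cannot be told apart from the lower coverage. The expectation takes the DMSO pileup as given, although it took part in the choice of members, and each condition was 1 library. The cause of the missing call was thus not tested for the 463 either. The C29F4 list had the highest mean coverage by this measure, 3.64 fragments, and was called on merged samples. Whether it was cut at the same threshold as the ab9110 lists was not tested, so absence from it may not be like for like.

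Distances to the peaks of the other lists follow from the rule and from the number of peaks in each list, and are given as a description. The median distance of a member to the nearest dTAG peak was 53232.5 bp, beside 69072 bp for DMSO peaks also called with C29F4. To the nearest C29F4 peak it was 77501 bp, and 1191 members (4.25%, interval 4.02 to 4.49) had either within 500 bp. At the edge of the rule, 18 members lay within 10 bp of a dTAG peak and had a median fold of 2.80, and 16 lay within 10 bp of a C29F4 peak and had a median fold of 3.26. Just outside it, 69 DMSO peaks shared 1 to 50 bp with a dTAG peak alone (median fold 3.06) and 67 with a C29F4 peak alone (3.22). Members and non-members at the edge thus had like folds.

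Chromosome 8 stood apart in the ab9110 libraries. The median background at ab9110 DMSO peaks was 4.40 fragments there and 2.93 to 3.67 on the other autosomes. It was 3.31 against 1.91 to 2.55 at dTAG peaks and 1.53 against 0.997 to 1.26 at dTAG input peaks, while at C29F4 peaks chromosome 8 (6.95) lay within the range of the other autosomes (6.25 to 7.64). DMSO-only peaks were also densest on chromosome 8, with 14.2 per Mb (1832 peaks) against 9.86 to 13.2 per Mb on the other autosomes. Whether the cells of the ab9110 samples carried extra copies of chromosome 8 was not tested. The X chromosome had 3.97 members per Mb, and its median background at ab9110 DMSO peaks was 2.36. The Y chromosome held 6 members. Leaving out chromosome 8 gave 26196 members and the same share of the list (68.7%).

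**Figure D2:**
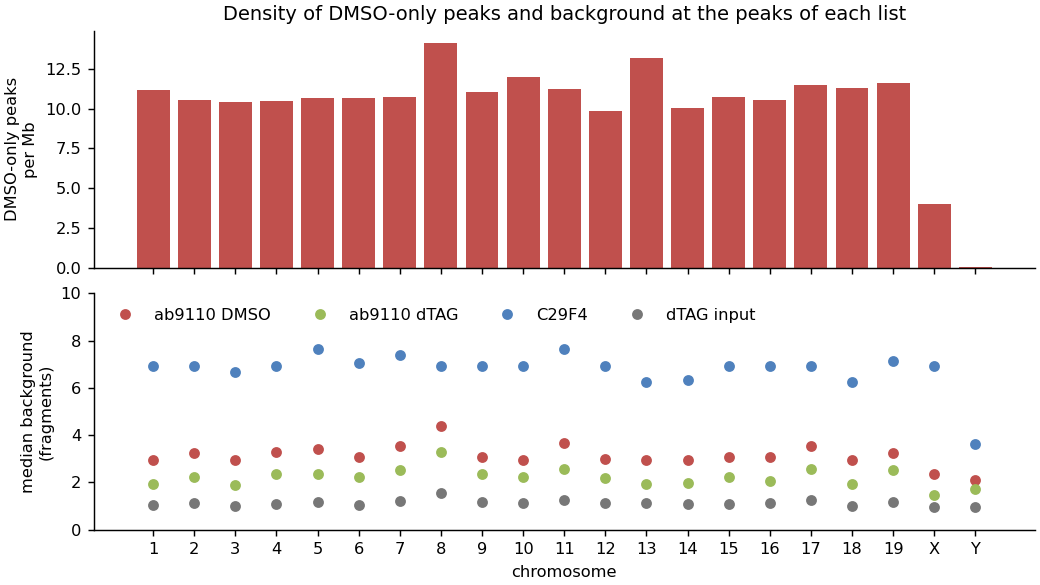
Upper panel, DMSO-only peaks per Mb of each chromosome; lower panel, median background in fragments at the peaks of each list, by chromosome. Chromosome 8 has the highest density of members (14.2 per Mb) and the highest background in the ab9110 DMSO, ab9110 dTAG and dTAG input lists, but not in the C29F4 list.

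Few members were called in input chromatin, which the rule did not use. A peak of the dTAG input list overlapped 119 members (0.425%, interval 0.352 to 0.508), against 1.14% of DMSO peaks also called with C29F4, 0.855% of those also called in dTAG and 1.37% of those called in both. Over all ab9110 DMSO peaks the share was 0.625%. A wider peak has more bases to overlap, and members were the narrowest class (median 342 bp against 594.5 to 1285 bp). These shares were not corrected for width, so they do not show that members held less input signal. Of the 463 members likely to be called at the dTAG coverage, 6 overlapped an input peak (1.30%, interval 0.477 to 2.80). The DMSO input was not analysed here.

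DMSO-only peaks were close to the genome in their repeat content. Soft-masked (repeat) bases made up 39.2% of their sequence and 36.4% of the genome, and 40.8% of their summits (interval 40.2 to 41.4) lay in a soft-masked base. In the same measure of summits, DMSO peaks also called with C29F4 reached 53.4%, those called in both 65.8% and those also called in dTAG 17.2%. Runs of at least 5 kb of soft-masked sequence, the length of long transposable elements such as full-length LINE-1, held 1704 DMSO-only summits (6.08%, interval 5.80 to 6.37) and 4.82% of genome windows. They held 26.9% of summits also called with C29F4, 43.9% of those called in both and 1.21% of those also called in dTAG. Repeat families are not named in the reference used, so elements were not identified.

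The copy number of the summit sequence followed the same order. The central 51 bases occurred more than once in the genome, counting both strands, for 17.2% of members (interval 16.8 to 17.7), 13.9% of genome windows, 33.3% of peaks also called with C29F4 and 48.6% of those called in both. At least 100 copies were found for 2259 members (8.06%), 5.57% of genome windows, 21.6% of peaks also called with C29F4 and 34.9% of those called in both. Reads from such copies were assigned to 1 location by the authors, so the position of these peaks among the copies is uncertain.

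The summits of the 10 members with the highest fold all lay in soft-masked sequence. Of the 10 members with the highest fold, 6 lay in unbroken tracts of C and T, or of A and G on the other strand, which covered from 218 bases to the whole of the window of 150 bases on each side of the summit. Among them were the members in introns of Slc9a9, a sodium/proton exchanger (chr9:94728244-94728732, fold 25.1, 77 fragments over a background of 2.11), of Ctnna2, a neuronal alpha-catenin (chr6:77731740-77732106, 11.6), of Enox2 (chrX:49060615-49060958, 11.5) and of Sgcz, a sarcoglycan (chr8:37777079-37777828, 10.9), and the member 5596 bp from Slc5a8, a monocarboxylate transporter (chr10:88880060-88880800, 11.8). A pair of others, on the X chromosome near Gm15102 (chrX:150012439-150013155, 10.6) and Mageb17-ps (chrX:91608656-91609390, 10.3), held the YY1 letters, and their central 51 bases occurred 1427 and 2028 times. The remaining pair, at chr2:172203757-172206030 (14.5) and chr5:118336730-118338057 (10.3), lay in soft-masked sequence 27915 and 59149 bp from the nearest annotated gene. None of the 10 overlapped an input peak.

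Tracts of at least 40 bases of a single base class, counted after the strongest members had been seen, occurred in 1476 members (5.27%, interval 5.01 to 5.53) and in 2.74% of genome windows. They occurred in 2.27% of windows of DMSO peaks also called with C29F4, 1.24% of those also called in dTAG and 1.03% of those called in both. Among the 463 members likely to be called at the dTAG coverage, 68 had one (14.7%, interval 11.6 to 18.2). Of the 100 members with the highest fold, 34 had one. Strict dinucleotide runs of at least 20 bases did not follow: GA runs were in 1.11% of member windows and 1.33% of genome windows, CA runs in 2.25% and 2.94%, and TA runs in 0 of 28028 member windows (at most 0.0132%) and 0.432% of genome windows.

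Members were richer in G and C than the genome and poorer than peaks also called in dTAG. The median GC content of the window around the summit was 48.2% for members, 41.5% for genome windows and 56.1% for DMSO peaks also called in dTAG. Windows with at least 10 CpG made up 12.3% of members (interval 11.9 to 12.7) and 2.17% of genome windows, but 57.7% of peaks also called in dTAG and 53.5% of those called in both. Over the whole peak the median GC was 47.8% for members and 54.96% for peaks also called in dTAG.

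Transcription starts were near few members. A start of any annotated transcript lay within 1 kb of 3096 summits (11.05%, interval 10.7 to 11.4), against 6.36% of genome windows and 6.75% of peaks also called with C29F4. For peaks also called in dTAG the share was 58.2%. A protein-coding start lay within 1 kb of 2144 members (7.65%) and of 3.72% of genome windows. Of all members, 54.4% of summits were intergenic, 38.9% intronic and 6.67% exonic, and 57.9% lay over 10 kb from a start, beside 54.0%, 41.2%, 4.82% and 62.1% of genome windows.

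**Figure D3:**
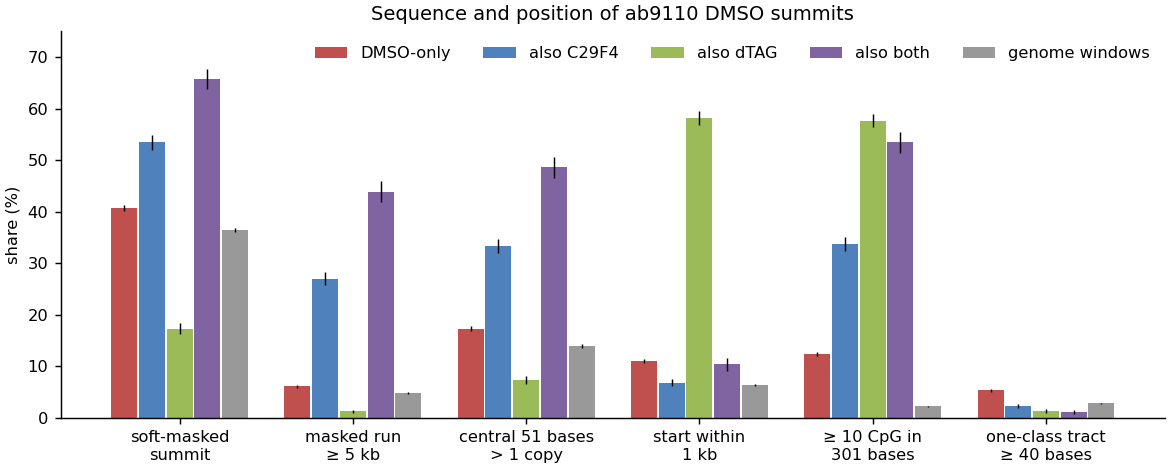
Share in percent of summits or of windows around summits with each feature, for the 4 classes of ab9110 DMSO peaks and for windows of the genome; error bars are exact 95% intervals. DMSO-only peaks lie near the genome in repeats (6.08% against 4.82% in masked runs of at least 5 kb), below the dTAG class at starts (11.05% against 58.2%) and above the other groups in tracts of a single base class (5.27%).

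The 10 members with the highest fold at protein-coding starts had folds from 5.63 to 8.10. The highest, 152 bp from the start of Bmpr1b (chr3:141931390-141931861, 25 fragments), lay 1276 bp from a C29F4 peak. The next was 333 bp from Mep1b, which encodes a subunit of the protease meprin (chr18:21061337-21062307, fold 7.93, 36 fragments), and Tm2d1 followed (chr4:98382618-98383576, 7.12). Others were at Iqch, Mettl22, a methyltransferase, Pot1b, which binds telomere ends, Rala, a small GTPase, Btbd11 and Tmem242, with folds of 6.07 to 5.63. Each of the 10 had a chance of at least 97.9% of being called at the dTAG coverage and lay at least 17512 bp from a dTAG peak. The Mettl22 member shared 886 bp with an input peak.

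Letters recognised by transcription factors were searched on both strands of the window of 150 bases on each side of each summit, and a match is a description and not a binding site. The ESRRB letters (TCAAGGTCA) were in 667 member windows (2.38%, interval 2.204 to 2.565), 0.632% of 8795274 genome windows and 0.423% of 32851 RefSeq promoter windows of 300 bases. The share was 2.17% (1.79 to 2.61) in peaks also called with C29F4 and 2.23% (1.67 to 2.91) in those called in both, and it was lower, at 1.75% (1.41 to 2.13), in those also called in dTAG. The classes differ in GC content, and at 40% to under 50% GC this order did not hold. There the share was 2.93% (2.67 to 3.21) in members and 3.94% (2.96 to 5.13) in peaks also called in dTAG. It was 3.46% (2.75 to 4.29) in peaks also called with C29F4 and 4.72% (3.31 to 6.51) in those called in both. The KLF letters (GGGTGTGG) were in 1580 member windows (5.64%, interval 5.37 to 5.91), 1.76% of genome windows and 3.56% of promoters. They were in 3.55% of peaks also called with C29F4, 5.74% of those also called in dTAG and 3.00% of those called in both. Both motifs were also more frequent than in genome windows of like composition: at 40% to under 50% GC, ESRRB letters were in 2.93% of members and 0.815% of genome windows, and KLF letters in 5.34% and 2.16%. At 60% GC or more the ESRRB letters were in 0.258% of members (interval 0.0837 to 0.6001) and 0.226% of genome windows, and the KLF letters in 3.55% (2.78 to 4.48) and 4.23%.

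Other letters were spread differently over the classes. The YY1 letters (AAGATGGCG) were in 2.258% of member windows and 0.303% of genome windows, but in 22.3% of peaks also called with C29F4 and 46.4% of those called in both. With soft-masked bases left out of the search, the YY1 share of members was 0.343%, and the ESRRB and KLF shares were 1.08% and 3.16%. Fewer bases were searched this way, and genome windows were not. These shares thus cannot be set against the genome shares given here. The letters of NRF1 (GCGCATGCG), ETS factors (CCGGAAGTG) and CRE-binding factors (TGACGTCA), which are typical of CpG-rich promoters, were in 0.218%, 0.314% and 0.389% of member windows. These shares were above those of genome windows (0.0447%, 0.0601% and 0.160%) and below those of peaks also called in dTAG (4.46%, 2.73% and 2.60%). The part of the REST motif searched (TCAGCACC) was in 2.65% of members, 1.36% of genome windows and 5.45% of peaks also called with C29F4. It was in 1.82% of peaks also called in dTAG and 1.71% of those called in both. The SOX letters (CATTGTT) were in 5.98% of members and 5.99% of genome windows, the octamer (ATGCAAAT) in 3.02% and 2.62%, and the AP-1 letters (TGACTCA) in 6.46% and 4.67%. At like composition the comparison changed. At 40% to under 50% GC, SOX letters were in 7.52% of members and 5.74% of genome windows, and the octamer in 4.04% and 2.39%. Under 40% GC the SOX shares were 6.52% and 7.27%, and the octamer shares 3.99% and 3.42%. At 60% GC or more they were 0.824% and 0.860% for SOX, and 0.103% and 0.267% for the octamer. The CTCF core (CCAGGGGGC) was in 0.382% of members and 0.154% of genome windows, the E-box (CACGTG) in 4.42% and 2.89%, and runs of at least 15 A in 1.16% and 1.85%. At 40% to under 50% GC the CTCF core was in 0.171% and 0.156%, and the E-box in 3.50% and 3.29%.

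**Figure D4:**
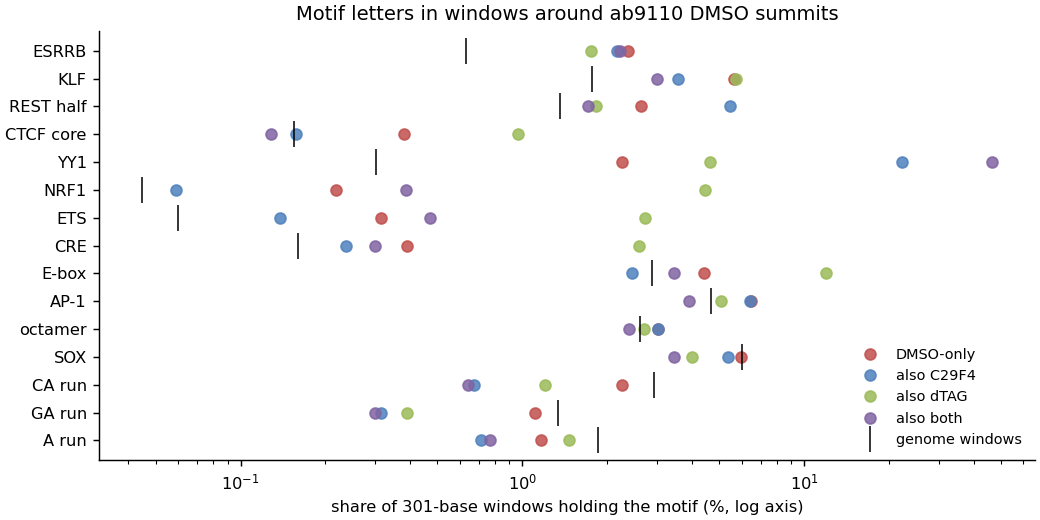
Share in percent, on a log axis, of windows around summits holding each motif on either strand, for the 4 classes of ab9110 DMSO peaks (points) and for all windows of the genome (vertical marks). ESRRB and KLF letters are in 2.38% and 5.64% of DMSO-only windows against 0.632% and 1.76% of genome windows, and YY1 letters are highest in the class called in both (46.4%).

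Among the members themselves, some of these features moved with the strength of the call. Members were put in 5 groups of equal size by −log10 p. From the weakest to the strongest group, the ESRRB letters went from 1.80% (interval 1.47 to 2.18) to 3.07% (2.63 to 3.55) and the KLF letters from 5.05% (4.49 to 5.65) to 7.83% (7.14 to 8.57). The share in masked runs of at least 5 kb went from 5.19% (4.62 to 5.80) to 8.10% (7.40 to 8.84), and that within 1 kb of a start from 9.81% (9.04 to 10.6) to 13.3% (12.4 to 14.2). The YY1 letters went from 1.68% (1.36 to 2.05) to 4.12% (3.62 to 4.67), and tracts of at least 40 bases from 4.44% (3.92 to 5.01) to 6.26% (5.64 to 6.93). CA runs went the other way, from 2.30% (1.92 to 2.73) to 1.69% (1.37 to 2.07). Of these features, only CA runs had overlapping intervals in the weakest and strongest groups. The changes were not steady. In the second weakest group the KLF letters (4.19%), YY1 letters (1.30%), masked runs (4.89%) and starts (8.30%) were below the weakest group.

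Within genes, members followed gene length. Of 21938 protein-coding genes, 34.0% had a member within the gene or 5 kb of it. Protein-coding gene spans held 10.1 members per Mb and the genome 10.3. The genes with the most members were long, led by the annotated spans of Gm20388 (53 members in 4435 kb) and Fgfr2, a fibroblast growth factor receptor (27 in 2961 kb). Magi2, a synaptic scaffold, and Pde4d, a cAMP phosphodiesterase, held 22 each, Gm37240 held 20, Auts2, Ctnna3 and Etl4 held 19 each, and Wwox held 18. Gm20388 and Wwox lie on chromosome 8, where background was raised. Genes holding at least 5 members numbered 423, with a median length of 409 kb against 17.4 kb for all protein-coding genes.

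Per length, shorter genes led, which a floor of 5 members favours, so this ranking is a description. Among genes with at least 5 members, Fam111a had 114 per Mb (5 in 44.0 kb) and Sugp2 109 per Mb (5). Cdh1, which encodes the epithelial cadherin of mESC colonies, held 7 members in 66.9 kb (105 per Mb), and Akain1 5 (100.2 per Mb). Zmynd8, a chromatin reader, held 10 in 115 kb (87.1 per Mb), Etv5, an ETS factor active in pluripotent cells, 5 (85.6 per Mb), Ahnak 7 (79.9 per Mb), Adam9, a membrane protease, 5 (74.3 per Mb), Ccnd3, cyclin D3, 7 (74.0 per Mb) and Akap2 13 (72.5 per Mb). Cdh1, Sugp2 and Adam9 lie on chromosome 8.

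Genes of core pluripotency factors held many members for their length. Of 25 such genes, 17 had a DMSO-only summit within the gene or 5 kb of it (68.0%). They held 39 summits where their covered length would give 8.44 at the density of the whole genome (47.5 against 10.3 per Mb). The list was also rich in peaks called with ab9110 in both treatments, with 27 summits where length would give 1.62, while peaks also called with C29F4 alone numbered 4 against 1.53.

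Esrrb itself held 6 members, Nr5a2, a nuclear receptor of the same network, 5, and Tfcp2l1 4. Pou5f1 (Oct4) and Dppa5a held 3 each. Sox2, Klf2, Prdm14, Dppa4, Nr0b1 and Fgf4 held 2 each, and Klf4, Dppa2, Dppa3, Utf1, Gbx2 and Lefty1 held 1 each. Nanog, Zfp42, Tbx3, Stat3, Lin28a and Tcl1 held no member but had a peak of another class, and Sall4 and Klf5 had none. The 39 members were weak, with a median fold of 2.98 (2.40 to 6.15) and a median pileup of 15 fragments. The exception was a peak 3388 bp from the Dppa5a start (chr9:78370899-78371827), with 31 fragments over a background of 4.20 and fold 6.15, the only 1 of the 39 with a chance of at least 95% of being called at the dTAG coverage. It lay 2866 bp from a dTAG peak and 1067 bp from a C29F4 peak. At Nr5a2, 4 of the 5 members lay within 1482 bp of a start, the strongest of them at chr1:136953512-136954206 (fold 3.68, 17 fragments), and the nearest dTAG peak was at least 96702 bp away. At Pou5f1, members lay 3442, 117 and 821 bp from a start, with 18, 19 and 18 fragments and folds of 3.46, 2.62 and 2.77. At Esrrb the folds ran from 2.62 to 3.01, and 3 of the 6 members lay within 970 bp of a dTAG peak.

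The EHMT complex and other genes of H3K9 methylation were the next densest list. Of 30 matched genes, 20 had a member near, and they held 43 summits where length would give 20.7. Peaks also called in dTAG numbered 23 there against 3.98 by length. Zfp462, the zinc finger partner of EHMT1 and EHMT2, held 11 members with folds of 2.79 to 4.16, along with 2 peaks called in all 3 lists. The H3K9 demethylase gene Kdm4c held 5, Atf7ip, which encodes a partner of SETDB1, 4, and Kdm4d and Dnmt3l, a cofactor of DNA methylation, 3 each. Setdb1, Trim28, Suv39h1 and Uhrf1 held 1 each. Ehmt1, Ehmt2 and Wiz held none, and each had a peak also called in dTAG.

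Imprinted genes were above the density of the genome by a smaller margin, and the remaining lists were below it. Of 29 matched imprinted genes, 15 had a member near, with 27 summits (17.5 per Mb) where length would give 15.9; the overlapping Igf2r and Airn share 1 of them. Sgce held 5, and Plagl1, Slc38a4 and Inpp5f 3 each. Of 34 matched genes of the 2-cell embryo, which EHMT2 is known to repress, 4 had a member (Arg2, Usp17la, Usp17lc and Pramel6), with 4 summits against 9.16 by length. Peaks also called with C29F4, also in dTAG and in both had 0 summits there, against 1.65, 1.76 and 0.763 by length. These expected counts were too small to tell whether the low count was particular to members. Germline genes had 9 summits against 12.1, germ layer regulators 7 against 9.72, and genes of neural adhesion and synapses 277 against 393, although all 30 of those very long genes held at least 1. Fibroblast genes, which would mark feeder cells in expression data, had 7 summits against 11.1. A peak near a gene is not a measure of its expression or of binding that regulates it.

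**Figure D5:**
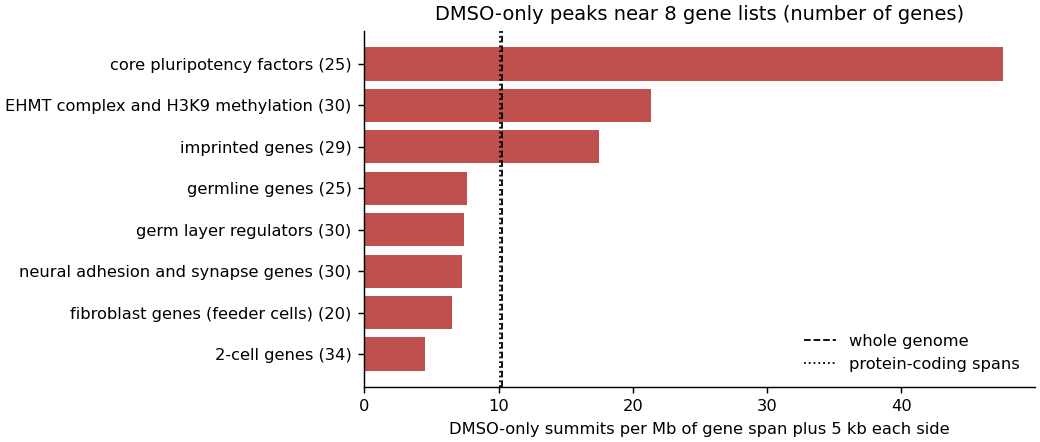
DMSO-only summits per Mb of gene span plus 5 kb on each side for 8 gene lists, with the number of matched genes in brackets; the dashed and dotted lines give the density over the whole genome (10.3 per Mb) and over protein-coding gene spans (10.1 per Mb). Core pluripotency factors have 47.5 per Mb and genes of the 2-cell embryo 4.49 per Mb.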

How the data were processed

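HA ChIP-seq and input libraries of EHMT2-dTAG mESCs were sequenced by the authors, aligned to mm10 with STAR 2.7.10 so that a multimapping read kept 1 location, cleared of duplicates (Picard 2.26.0) and of high-signal regions, and peaks were called with MACS2 2.2.6 at p < 0.05 and kept at q < 0.05. The use of an input control in peak calling is not given in the sources used here. The deposited fold enrichment is the authors' ratio of pileup to background at the summit, with a pseudocount of 1 added to each. Summit p-values and q-values were deposited as −log10 values. The q-values of the merged C29F4 list were not used, and its threshold was not checked against that of the ab9110 lists. The deposited integer score was 10 times −log10 p in the ab9110 lists and was not used. Read totals are not in the lists, so depth was taken as relative coverage.

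Samples were grouped as the labels give them. Overlaps needed 1 bp. 3 ab9110 DMSO peaks on other sequences were left out. Pileup and background were solved from fold and Poisson p-value, which were tested on simulated data, as were overlap calls against bedtools 2.31.1. Calls at the dTAG coverage were computed exactly by binomial thinning. Soft-masking and sequence came from RefSeq GRCm38.p6, genes and starts from GENCODE M21. Genome windows were consecutive windows of the size searched around summits, without assembly gaps; for repeats, copies, tracts and starts every 200th (43977) was used. Gene lists (4 symbols unmatched) were written by hand. The 10 members with the highest fold, the 10 with the highest fold within 1 kb of a protein-coding start, and the 10 protein-coding genes with the most members in all and per Mb (at least 5) were named, as were listed genes with a member. Some named items and sequences are not reported here. The members and lists were chosen with earlier results of these data known. Sequences shown, tracts of a single base class and the alternative without chromosome 8 were chosen after seeing the data. Analysis used Python 3.11.15, NumPy 2.4.6, pandas 2.3.3 and SciPy 1.17.1.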

Additional observations from a re-analysis of the deposited data

How the results depend on the processing

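Values were recomputed under stricter q-values for the ab9110 DMSO list, other overlap rules and subsets of members. At a q-value under 0.01 there were 13049 DMSO-only peaks, 54.6% of the list; 0.621% overlapped an input peak, 7.10% lay in runs of at least 5 kb, 12.5% within 1 kb of a start, and the median GC was 48.2%. At a q-value under 0.001 these values were 5842, 39.7%, 0.787%, 7.91%, 13.3% and 48.5%. Members with a chance of at least 95% of a call at the dTAG coverage were 463, or 1.13% of the list, with 1.30% over input peaks, 42.7% soft-masked bases, 6.91% in long runs, 11.9% near starts and a median GC of 47.3%. When a dTAG or C29F4 peak within 500 bp took a peak out, the share of the list was 65.8% and 10.7% lay near starts. When only an overlap of at least 50% did so, the share was 75.5%, with 6.52% in long runs and 11.6% near starts. With runs of at least 2 kb the share in runs was 7.95%. With starts within 500 bp it was 8.05%, and with protein-coding starts alone 7.65%. Leaving out members over input peaks gave 0% over input by construction. With the smallest −log10 p among DMSO peaks as the threshold, 38.6% of members were expected to be called at the dTAG coverage. Without chromosome 8, an alternative chosen after seeing the data, each of these shares and medians stayed within the interval of its value or, for the count and the expected calls, within 1.5 times. Within 1 kb of a start, 7 of 25 core pluripotency genes and 1 of 34 genes of the 2-cell embryo had a member. The number of DMSO-only peaks and their share of the list thus depend on the threshold of the DMSO list and on coverage. The cause of the other shifts was not tested. Leaving out a replicate was not possible, since each list is 1 library or 1 merged pair. No paired analysis was possible because the numbers that ChIP and input samples share are not kept in the lists.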

Other observations

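DMSO-only peaks were gathered in some megabases, named here after their counts had been seen. Over 2737 windows of 1 Mb the median was 10 members and the highest 38. That window (chr13:66000001-67000000) contains 2410141K09Rik, and 76.3% of its members had a central sequence with more than 1 copy. In chr1:153000001-154000000, around Lamc1, Rgs16 and Glul, 31 members were called and 3.23% were repeated in this way, and in chr6:108000001-109000000, around Itpr1 and Bhlhe40, 31 and 12.9%. The window at Grin2a (chr16:9000001-10000000) held 32. Other ab9110 DMSO peaks were also dense in these windows, so the gathering was not seen in members alone. They numbered 11 in the chromosome 13 window, 7 in that of chromosome 1, 9 in that of chromosome 6 and 11 in that of chromosome 16. Over these whole chromosomes they numbered 5.68, 4.93, 4.69 and 4.67 per Mb.

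The position of motif letters around member summits differed between motifs. Of 709 ESRRB matches in member windows, 40.8% (interval 37.1 to 44.5) were centred within 50 bp of the summit, where 34.5% of positions lie. For KLF the values were 39.6% (37.4 to 41.9) of 1839 matches and 34.0% of positions, for YY1 40.8% (37.1 to 44.6) of 681 and 34.5%, and for AP-1 33.8% (31.7 to 36.0) of 1949 and 34.2%. For the CTCF core, with 112 matches, the share was below that of positions, at 23.2% (15.8 to 32.1) and 34.5%.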
